A study of Mus musculus with 2 samples.

Results

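A group of 10 genes with a known link to steroid hormones was followed in cultured mesenchyme of the mouse urogenital sinus (UGM), the fetal stroma around the epithelium that forms the prostate. The genes were Fkbp5, Zbtb16, Fam107a, Sgk1, Tsc22d3, Depp1, Zbtb10, Iqgap2, Abcc4 and Sat1, out of 18193 genes named on the array. They were chosen by name with their differences on these arrays already known, so the values below describe them and were not tested. Each gene was read from every probe set annotated to it alone, 23 probe sets in all, and the probe set with the highest mean log2 intensity over both arrays gave the value of the gene.

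The cells came from day 16 males of the C57BL/6 strain and no group carried a transgene or mutation. Both cultures were held for 72 h in medium with 5% charcoal-stripped serum, from which steroids are depleted. One culture had no further addition (untreated, or without hormone), and the other received testosterone at 12 nM and estradiol-17 beta at 120 pM together (T+E2, or with hormone), so the effects of the 2 hormones cannot be told apart. There was 1 array per culture. Sample titles give 24 h where the protocol gives 72 h, and the descriptions put the untreated cells at confluency and the T+E2 cells near it. No difference below can therefore be set against the spread between cultures, and whether density took part was not tested.

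Steroid receptors of this class are ligand-activated transcription factors. They are held ready for hormone by the Hsp90 chaperone complex and, once bound, act at hormone response elements in DNA. The glucocorticoid receptor recognises an inverted repeat, and Fkbp5 and Tsc22d3 are among the genes known to answer to glucocorticoids. Estrogen receptors recognise a different repeat. In the fetal urogenital sinus it is the mesenchyme that receives the androgen signal for prostate budding.

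The stretches of 250 bases before an annotated transcript start are shown for 4 genes with a match to a receptor repeat or 1 arm of it and for 2 with large differences and no match. They are RefSeq sequences of GRCm38.p6, 5′ to 3′ on the strand of the gene. Capitals mark AGAACA or its reverse complement TGTTCT, and the run of capitals in Sgk1 that holds both is the whole 15-base repeat.
Sgk1, chr10:21993640-21993889, plus strand: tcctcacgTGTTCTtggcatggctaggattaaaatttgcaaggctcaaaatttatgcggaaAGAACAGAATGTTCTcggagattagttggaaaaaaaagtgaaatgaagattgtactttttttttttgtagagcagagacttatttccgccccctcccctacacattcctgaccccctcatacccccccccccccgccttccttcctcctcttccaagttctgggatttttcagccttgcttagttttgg
Fam107a, chr14:8309780-8310029, minus strand: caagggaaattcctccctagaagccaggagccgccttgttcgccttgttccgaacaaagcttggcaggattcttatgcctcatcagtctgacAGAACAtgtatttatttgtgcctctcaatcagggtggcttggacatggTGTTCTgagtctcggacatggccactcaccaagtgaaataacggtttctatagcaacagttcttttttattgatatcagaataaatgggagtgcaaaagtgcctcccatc
Tsc22d3, chrX:140600523-140600772, minus strand: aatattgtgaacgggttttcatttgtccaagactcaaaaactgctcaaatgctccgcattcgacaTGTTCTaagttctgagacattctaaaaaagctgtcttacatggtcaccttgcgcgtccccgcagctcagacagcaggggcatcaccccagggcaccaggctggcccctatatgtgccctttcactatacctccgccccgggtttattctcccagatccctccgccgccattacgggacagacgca
Sat1, chrX:155216450-155216699, minus strand: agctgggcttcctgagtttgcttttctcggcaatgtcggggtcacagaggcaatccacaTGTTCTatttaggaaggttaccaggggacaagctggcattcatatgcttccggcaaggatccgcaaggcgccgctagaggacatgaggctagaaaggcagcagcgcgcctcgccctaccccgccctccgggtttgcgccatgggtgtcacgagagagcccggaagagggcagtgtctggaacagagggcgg
Fkbp5, chr17:28486150-28486399, minus strand: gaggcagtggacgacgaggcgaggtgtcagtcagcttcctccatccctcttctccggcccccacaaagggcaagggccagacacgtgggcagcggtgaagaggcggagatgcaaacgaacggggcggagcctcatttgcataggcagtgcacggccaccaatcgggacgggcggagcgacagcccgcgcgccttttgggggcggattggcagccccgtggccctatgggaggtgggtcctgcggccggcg
Depp1, chr6:116650434-116650683, plus strand: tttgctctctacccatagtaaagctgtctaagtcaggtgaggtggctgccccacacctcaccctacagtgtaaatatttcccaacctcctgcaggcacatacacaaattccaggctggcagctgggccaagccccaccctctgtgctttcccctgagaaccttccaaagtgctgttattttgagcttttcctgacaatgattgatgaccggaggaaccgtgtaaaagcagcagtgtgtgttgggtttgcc

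The whole repeat, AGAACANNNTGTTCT, which reads the same on both strands, occurred in 1 of the 18 windows found for 8 of the genes. Zbtb16 and Zbtb10 had no window. The match lay 175 to 189 bases before 1 of the 6 annotated Sgk1 starts. Only 3 of the 32851 windows of this length for all genes held it (0.00913%), the Sgk1 window among them. That Sgk1 window was also the only 1 of the 10717 windows found for measured genes (0.00933%) to hold it. A looser form, GNACANNNTGTNC, which the whole repeat contains, was found in 3 of the 18 windows, against 0.387% of all windows and 0.243% of those of measured genes. These were the same Sgk1 window and the windows of 2 Fam107a starts that lie next to each other and share nearly all their sequence. One arm of the repeat, AGAACA, on either strand and also within the whole repeat, was in 8 of the 18 windows and in 16.1% of all windows (10.3% of those of measured genes); the 8 belonged to Sgk1, Fam107a, Tsc22d3, Abcc4 and Sat1. The estrogen response repeat GGTCANNNTGACC was in none of the 18 windows and in 0.0639% of all windows, with 0 among those of measured genes. A match is a run of letters and not a site shown to bind a receptor, and a window without one says nothing of elements elsewhere in the gene.

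With T+E2, 8 of the 10 genes were higher by 2-fold or more, 1 was lower by as much and 1 differed by less. Across all 10267 measured genes, 4.96% were at least 2-fold higher and 4.01% at least 2-fold lower, but the genes were picked with these values known and nothing is read from the contrast. That is 509 genes higher and 412 lower, which became 408 and 520 with all differences centred on their median. A gene counted as measured when its log2 intensity reached 5 on at least 1 array (an intensity of 32), and lower values were raised to that floor before the difference was formed. All 10 genes were measured. At least 4-fold higher were 4 of them, Fam107a, Zbtb16, Fkbp5 and Depp1, against 0.438% of measured genes. The name "steroid-induced" was not borne out for 2 of the genes on these arrays: Tsc22d3 was level and Sat1 was lower.

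**Figure D1:**
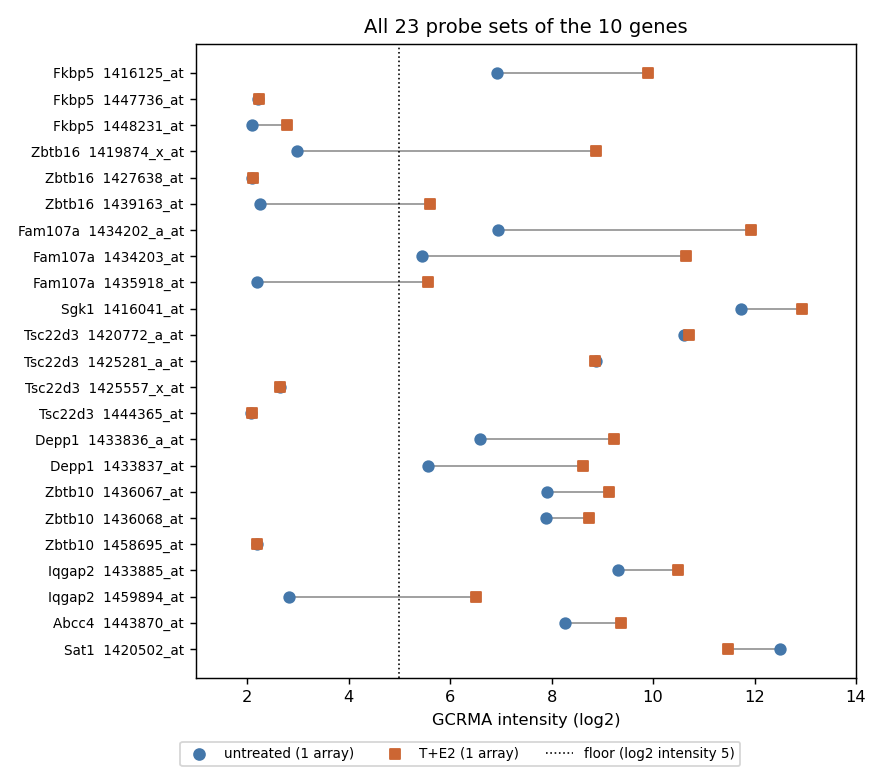
Log2 GCRMA intensity of each of the 23 probe sets (rows) on the untreated array (circle) and the T+E2 array (square), joined by a line; the dotted line is the floor at 5. Of the 17 probe sets that reached the floor, 13 did so on both arrays and 4 with T+E2 alone, and Sat1 is the one row where the circle lies clearly to the right.

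Fkbp5 encodes FKBP51, a co-chaperone that sits in the Hsp90 complex of steroid receptors and lowers the hormone affinity of the glucocorticoid receptor. Its leading probe set (1416125_at) read an intensity of 121 without hormone and 961 with it, which is 7.95-fold higher (log2 difference 2.99). The other two probe sets of the gene lay under the floor on both arrays, at 4.63 and 4.70 for 1447736_at and at 4.30 and 6.88 for 1448231_at. The difference in Fkbp5 therefore rests on 1 probe set.

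The chaperones that work with Fkbp5 were counted beside it. Of 12 measured chaperones and co-chaperones of steroid receptors, 0 were 2-fold different, with a median log2 difference of -0.01 against 0.07 over all measured genes; with the trend on genomic span removed, described below, it was 0.05. The largest were Ppp5c, a receptor-associated phosphatase (0.66), and Cdc37, a kinase-specific co-chaperone (-0.54), whose probe sets lay on opposite sides. Fkbp4, which encodes the closest relative FKBP52, was at a log2 level of 9.42 without hormone and 8.96 with it (difference -0.45). None of the 12 measured FKBP relatives reached 2-fold, and 9 of them lay below 0, with a median of -0.35, or -0.17 with the span trend removed.

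Zbtb16 and Zbtb10 encode transcription factors with a BTB domain and zinc fingers. Zbtb16, also called PLZF, is a repressor known as a glucocorticoid- and progestin-responsive gene. Its leading probe set (1419874_x_at) read 7.85 without hormone, under the floor, and 469 with it, which is at least 14.7-fold higher (log2 difference of at least 3.87). A second, 1439163_at, read 4.77 and 48.6, at least 1.52-fold higher. The third, 1427638_at, stayed at 4.30 and 4.32. The suffix x marks a probe set with probes that can match other transcripts, so the size of the Zbtb16 difference depends on that probe set, while both probe sets that reached the floor did so with T+E2 only.

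Zbtb10 was smaller in its difference and closer across its probe sets. Probe set 1436067_at read 242 without hormone and 562 with it (2.33-fold higher), and 1436068_at read 238 and 428 (1.80-fold higher). Its last probe set lay under the floor on both arrays. Of 31 other measured ZBTB genes, 3 were at least 2-fold higher (9.68%, against 4.96% of all measured genes) and 0 lower, and 26 lay above 0 with a median of 0.40. The 3 were Zbtb39 (1.18), Zbtb8a (1.13) and Zbtb20 (1.02). The count was 1 with a trend on level removed, 2 with centring or a floor of 6, and 4 with the span trend removed or the mean of all probe sets.

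Fam107a encodes an actin-associated protein that is raised by stress and glucocorticoids in brain. Its log2 difference was 4.99; the difference of Zbtb16 is a lower bound and was 5.90 with no floor, so the order of these 2 depends on the floor. Probe set 1434202_a_at read 123 without hormone and 3907 with it, and 1434203_at read 43.4 and 1616, so the folds were 31.9 and 37.2. Probe set 1435918_at read 4.59 and 47.6, at least 1.49-fold higher. All 3 probe sets were higher with T+E2. Its only relative, Fam107b, was at a log2 level of 11.36 without hormone and 11.80 with it (0.44).

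Sgk1 encodes a kinase named for its induction by serum and glucocorticoid, which promotes sodium transport and cell survival. Its 1 probe set read 3384 without hormone and 7847 with it, 2.32-fold higher (log2 difference 1.21). Among 9 other measured genes of the SGK family and pathway, 0 reached 2-fold in either direction, with a median of 0.25. Sgk3 was level (0.01) and Sgk2 lay under the floor on both arrays. The largest were the ubiquitin ligase genes Nedd4 (0.45) and Nedd4l (0.35), the latter an Sgk1 substrate with probe sets on opposite sides. With the span trend removed the median of this list was -0.18, and its direction turned.

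Tsc22d3 encodes GILZ, a leucine zipper protein that carries part of the anti-inflammatory action of glucocorticoids. It was well above the floor, and its 2 probe sets above the floor lay on opposite sides of 0. Probe set 1420772_a_at read 1560 without hormone and 1672 with it (log2 difference 0.10), and 1425281_a_at read 472 and 462 (-0.03). The other two lay under the floor on both. Its relatives were between as well, at 0.09 for Tsc22d1, 0.37 for Tsc22d2 and 0.39 for Tsc22d4.

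Depp1 encodes a small protein named for decidual induction by progesterone and known as a FOXO target. Both of its probe sets were higher with T+E2. Probe set 1433836_a_at read 95.8 without hormone and 602 with it (6.29-fold), and 1433837_at read 47.3 and 395 (8.37-fold).

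Iqgap2, Abcc4 and Sat1 are known from androgen-responsive prostate cells, and their leading probe sets differed by close to 2-fold. Iqgap2 encodes a scaffold protein that binds actin and calmodulin. Its probe set 1433885_at read 631 without hormone and 1439 with it (2.28-fold), and 1459894_at read 7.04 and 90.8, at least 2.84-fold higher. Its relatives Iqgap1 (0.67) and Iqgap3 (0.89) were higher by less than 2-fold.

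Abcc4 encodes MRP4, an exporter of cyclic nucleotides, prostaglandins and conjugated steroids. Its 1 probe set read 308 without hormone and 662 with it (2.15-fold, log2 difference 1.11). Among 4 other measured ABCC transporters, the 1 past 2-fold was Abcc5 (-1.12), whose probe sets lay on opposite sides.

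Sat1 encodes spermidine/spermine N1-acetyltransferase, the enzyme that starts polyamine breakdown. It was the 1 gene of the 10 that was lower, at 5765 without hormone and 2852 with it in its only probe set (log2 difference -1.02, 2.02-fold). Of 9 other measured polyamine genes, 0 were called higher or lower by 2-fold and 7 lay below 0, with a median of -0.07; 1 was called lower with a floor of 4, with no floor or with a trend on level removed. The largest were Arg2 (-0.86 or further below 0, since its T+E2 value lay under the floor, so that 2-fold may have been passed) and Sat2, an acetyltransferase relative (-0.81). The synthesis enzyme gene Odc1 was level (-0.07).

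**Figure D2:**
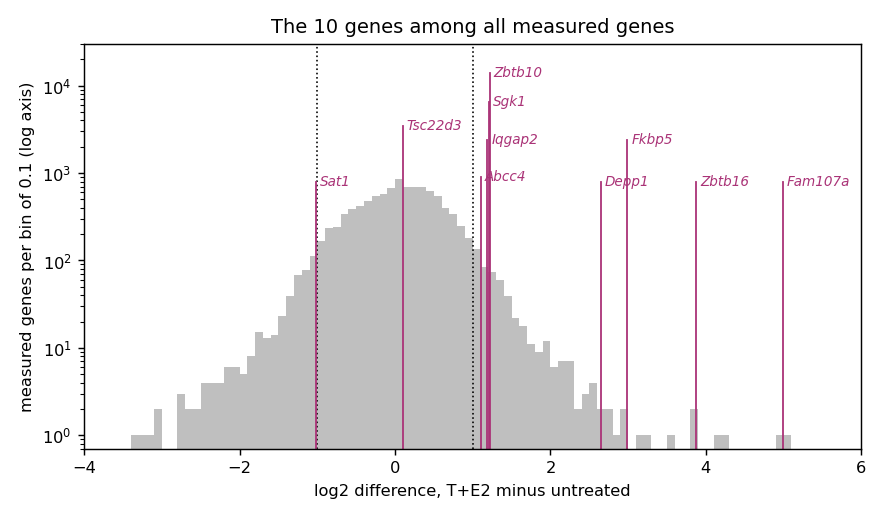
Number of measured genes in each bin of log2 difference, T+E2 minus untreated (log vertical axis), with a line at each of the 10 genes, whose height has no meaning; dotted lines mark 2-fold. Fam107a, Zbtb16 (a lower bound), Fkbp5 and Depp1 lie in the far upper tail, 4 genes sit just past the upper 2-fold line, Sat1 lies at the lower line and Tsc22d3 near the middle.

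Several hormone receptors were read beside the genes. The glucocorticoid receptor gene Nr3c1 was at a log2 level of 11.34 without hormone and 11.31 with it. The mineralocorticoid receptor gene Nr3c2 lay at the floor (4.51 and 5.01), Gper1, a membrane estrogen receptor, was at 7.93 and 8.11, and Esr1, Esr2 and Pgr lay under the floor on both arrays, between 2.14 and 2.46. None of the 3 measured receptors reached 2-fold.

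Other genes known to answer glucocorticoids or androgens were counted from lists that left out the 10 genes. Of 29 measured glucocorticoid response genes, 5 were higher by 2-fold or more (17.2%, against 4.96% of all measured genes), 24 differed by less and 0 were lower by 2-fold. The median log2 difference was 0.55, against 0.07 over all measured genes. The 5 were the phosphatase gene Dusp1 (2.11), the clock gene Per1 (1.99), the EGF receptor inhibitor gene Errfi1 (1.43), the repressor gene Nfil3 (1.38) and the forkhead factor gene Foxo1 (1.20). The first 4 of these are also immediate early genes, which many stimuli raise within minutes. On these arrays 17 of 33 measured immediate early genes were at least 2-fold higher (median 1.11), on a list drawn up after these values were seen. Without the immediate early genes the glucocorticoid count was 1 of 19 (5.26%, against 4.96% of all measured genes), with a median of 0.41. Since that later list holds 4 of the 5 genes, nothing is read from the drop. The part of the immediate early genes in the values of the 10 genes was not tested.

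Of 70 measured androgen response genes, 1 was higher by 2-fold or more (1.43%, against 4.96% of all measured genes). Another 69 differed by less and 0 were lower by 2-fold, against 4.01% of all measured genes. A further 13 genes of the list lay under the floor on both arrays. The member that was higher was the cell cycle kinase gene Cdk6 (1.09). Of the 70 differences 56 were positive, with a median of 0.32, where 55.8% of all measured genes were positive. With the span trend removed 48 of the 70 were positive, with a median of 0.12, against 51.2% of all genes with a span. Of 9 measured estrogen response genes, the corepressor gene Nrip1 (1.03) was higher (11.1%, against 4.96% of all measured genes). The other 8 differed by less than 2-fold (median 0.09). With centring 0 of the 9 reached 2-fold, where 3.97% of all measured genes were higher by as much and 5.06% lower.

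**Figure D3:**
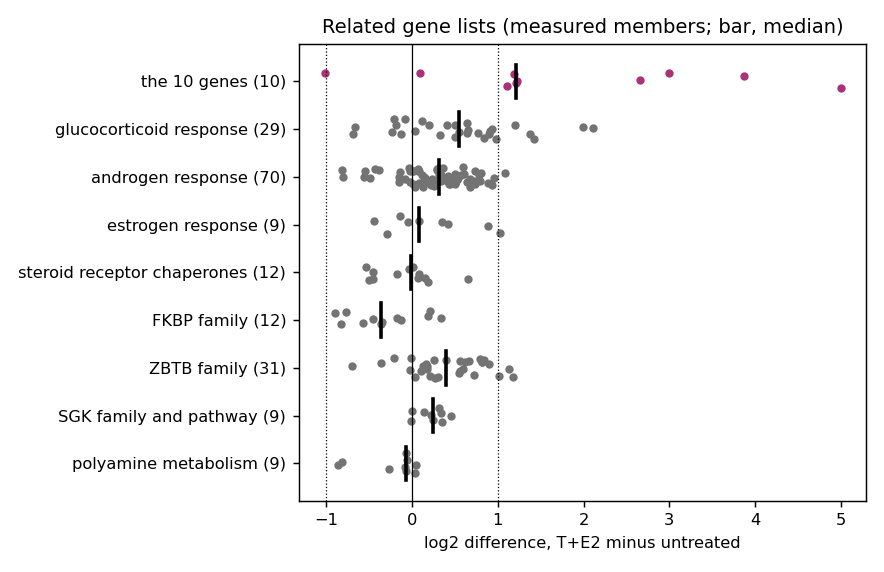
Log2 difference, T+E2 minus untreated, of each measured gene (point) in the 10 genes and in 8 related lists, with the number measured in brackets, the list median as a bar and 2-fold as dotted lines. Medians run from -0.35 in the FKBP family to 0.55 in the glucocorticoid response list and 1.22 in the 10 genes.

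The difference between the arrays varied with genomic span, the distance from the first to the last base of a gene. Measured genes were split by span into 5 groups of 2049 or 2050. In the group with the longest spans (from 70.7 kb), the median difference was 0.46 and 13.2% were at least 2-fold higher; in the group with the shortest (up to 8.51 kb) the median was -0.19 and 2.05% were. Fkbp5, Zbtb16, Sgk1, Iqgap2 and Abcc4 belong to the longest group, and Depp1 and Sat1 to the shortest. With a smooth trend on span removed, Sgk1 stood at 0.79, Iqgap2 at 0.62, Abcc4 at 0.56 and Sat1 at -0.81, all under 2-fold. Fam107a (5.01), Zbtb16 (at least 3.37), Depp1 (2.90), Fkbp5 (2.64) and Zbtb10 (1.13) remained above it. The count of genes at least 2-fold higher was then 5 of the 10, against 2.96% of all 10248 measured genes with a span. In the related lists, Foxo1 (0.87), Nrip1 (0.68), Cdk6 (0.58) and Zbtb20 (0.25) were then under 2-fold as well, while Glul (1.03), Maf (1.09), Srf (1.06), Zbtb22 (1.05) and, just past it, Zbtb45 were then at least 2-fold higher. The glucocorticoid response count stayed at 5 of 29, the androgen response count was 2 of 70 and the ZBTB count was 4 of 31. The same 2.96% of all genes stands beside these counts.

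**Figure D4:**
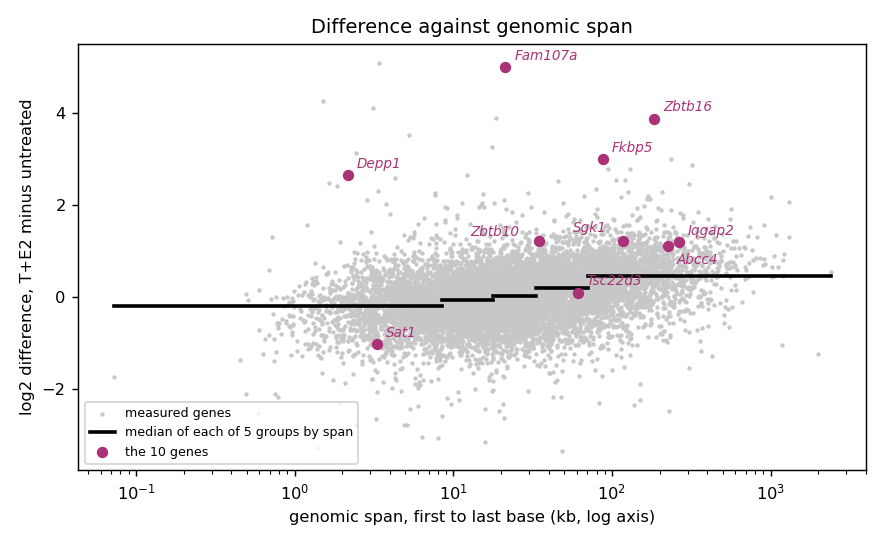
Log2 difference, T+E2 minus untreated, against genomic span in kb (log axis) for measured genes (grey), with the median of each of 5 groups by span (bars) and the 10 genes (large points). The medians climb from -0.19 to 0.46; Fam107a, Zbtb16, Fkbp5 and Depp1 lie far above the bar of their own group, while Sgk1, Iqgap2 and Abcc4 lie nearer to theirs.

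Genes with the most similar pair of levels were found by the distance between log2 values on the 2 arrays after lower values were raised to the floor. The search covered measured genes other than the 10, with clone and locus symbols left out. It is a description over 2 values only. The levels given in brackets are those before the floor. Nearest to Fkbp5 were the microtubule-associated protein gene Map1b (7.05 without hormone and 9.83 with it) and the hypoxia-inducible factor gene Epas1 (6.87 and 9.22). Nearest to Zbtb16 were Eppk1 (4.44 and 8.90) and the lipocalin gene Lcn2 (3.70 and 9.10), both under the floor without hormone, so that this array took no part in their distance and their order rests on the T+E2 level alone. Fam107a had no close match, with Zfp36 (7.34 and 10.47) and Btg2 (7.57 and 10.17) nearest at distances of 1.51 and 1.87. Nearest to Sgk1 were Gli3 (11.69 and 12.82) and Zmat3 (11.88 and 12.81).

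The cell label was checked against markers. Of 11 mesenchyme markers 10 were measured, at log2 levels of 9.74 to 15.13 in untreated cells, and 0 were 2-fold different; Thy1 lay under the floor. Of the urogenital markers, Hoxa10 (-0.14), Foxf1 (0.17) and Foxf2 were measured, and Foxf2 was higher (1.28), while Hoxa13, Hoxd13, Hoxd10 and Nkx2-3 lay under the floor on both arrays. Of 14 epithelial markers 3 were measured (summed intensity over the list 4128 without hormone and 6481 with it). Esrp2 had the highest level of the 3, at a log2 of 11.9 without hormone and 12.5 with it (0.64). Trp63 was at 7.99 and 8.46 (0.47). Cdh1, nearer the floor at 5.37 and 7.57, was higher by 2.20. The other 11, Epcam and the keratin genes among them, lay under the floor on both arrays. Of 7 skeletal muscle markers 0 were measured. Summed intensities were 1025 and 1338 for 8 endothelial markers, of which 6 lay under the floor on both arrays. The other 2 were Tek, at 9.82 and 10.02 (0.20), and Flt1, at the lower levels of 6.56 and 8.08 (1.52). For 7 leukocyte markers the sums were 1096 and 400.05. Lyz2 was lower (-1.53), and the other 6, Ptprc among them, lay under the floor. For the 5 neural and Schwann markers on the array the sums were 1365 and 2469. Ncam1 was at 10.25 and 11.18 (0.94). S100b, whose probe sets lay on opposite sides, was at 7.08 and 6.92 (-0.16). The other 3, Sox10, Tubb3 and Elavl4, lay under the floor on both arrays. The part of these cells in the 10 genes was not tested, and in bulk RNA fewer cells of a type and less RNA per cell cannot be told apart.

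Technical controls differed little between the arrays apart from ribosomal RNA. The 18 hybridization spike probe sets differed by -0.25 to 0.09 (log2). The gap between the 3′ and 5′ probe sets of Gapdh was 1.19 without hormone and 1.11 with it, and that of Actb 1.57 and 1.50. The 3 probe sets of 18S ribosomal RNA were lower with T+E2, by -0.62 to -1.58, and the part of this in the results was not tested.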

How the data were processed

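RNA from 1 untreated and 1 T+E2 culture was hybridized to Affymetrix mouse arrays, 1 per culture. The authors deposited GCRMA intensity values on a linear scale (3.75 to 71889), per the submitters' processing notes for the method and from the values for the scale; the version and whether both arrays were normalized together are not given in the sources used here. Precision is limited by the number of arrays.

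Intensities were log2-transformed here without rescaling, floored at 5, and the difference T+E2 minus untreated was formed; where 1 array lay under the floor the fold is a lower bound ("at least"). With 1 array per group no p-value was computed. Probe sets were named from the platform annotation, updated through the RefSeq table of GRCm38.p6 (18145 of 18193 genes matched). Of 45101 probe sets, 34945 named 1 gene, 932 several, 9160 were not listed and 64 were controls; none of the 932 named any of the 10 genes. The 10 genes and the lists were chosen with earlier results of these data known, the immediate early list after seeing these values. From each list the text names up to 4 genes per direction at 2-fold, or the 2 largest, the receptors reported here and close relatives of the 10 genes. Foxo1, further markers, Sgk2, Sgk3, Thy1, Odc1 and similar single genes were named after their values were seen. The span trend was a lowess fit (fraction 0.3) over measured genes. The code that makes the 2-fold calls was checked on simulated arrays with known differences. Python 3.11.15, pandas 2.3.3 and statsmodels 0.14.6 were used.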

Additional observations from a re-analysis of the deposited data

How the results depend on the processing

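Under 8 alternatives (floors of 4 and 6, no floor, centring on the median difference, removal of the span or level trend, the mean of all probe sets, and probe sets without the suffixes s, x or a first), no 2-fold difference of the 10 genes changed sign, where the gene was measured, while Tsc22d3 ranged from -0.15 to 0.10 over 7 of them. With unsuffixed probe sets first Tsc22d3 lay under the floor, and 7 of the 10 genes were at least 2-fold higher. The count at least 2-fold higher was 8 as reported and 5 with the span trend removed. It was also 5 with the mean of all probe sets, where Fkbp5 fell under the floor, Zbtb16 was at least 0.53, Zbtb10 was 0.69 and Iqgap2 was larger, at 2.44. That mean was taken before the floor was applied, so readings under the floor on 1 or both arrays enter it in full. For Iqgap2 this holds for probe set 1459894_at, which read 7.04 without hormone and 90.8 with it. With unsuffixed probe sets Zbtb16 was at least 0.60. The androgen response count moved from 1 to 2 with the span trend removed (the cause was not tested), and the glucocorticoid response count from 5 to 1 without immediate early genes, a setting added after seeing the data. Over all measured genes, 509 were at least 2-fold higher and 412 lower, against 303 and 433 with the span trend removed, 408 and 520 with centring and 391 and 517 with the level trend removed. No paired analysis was possible because each group has 1 array, and no replicate could be left out.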

Other observations

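The measured genes next to each of the 10 genes on the chromosome, 1 on either side, were read after the values of the 10 genes were known. Of these 20 neighbours, 2 were higher with T+E2 by 2-fold or more and 2 lower by as much. Over all measured genes the shares were 4.96% and 4.01%, and nothing is read from counts this small. The other 16 differed by less, and the median log2 difference of the 20 was -0.08. The neighbours of Fkbp5 were level, the ribosomal protein gene Rpl10a at -0.02 and the kinase gene Srpk1 at 0.04. Beside Zbtb16, Nnmt, a nicotinamide methyltransferase gene, was at -0.68 and Usp28 at -0.45. The phosphatase gene Ptprg, next to Fam107a, was higher (1.06), with Kctd6 on the other side at 0.03. Zfp704, next to Zbtb10, was higher as well (1.13). On the lower side were Tbpl1, next to Sgk1 (-1.03), and the proteasome subunit gene Psmd10, next to Tsc22d3 (-1.36). The chemokine gene Cxcl12, next to Depp1, was at 0.35. Beside Sat1, Acot9 was at -0.74 and Spin2c at -0.35.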
